A study of Mus musculus with 8 samples.

Results

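The genes described here mark the 2 ends of the liver lobule: 19 pericentral genes that depend on or take part in Wnt signalling, and 15 periportal genes. All 34 were taken by symbol from a list of zonation genes drawn up with earlier results of these data known, and all 34 were found among the 15210 genes of the deposited table. RNA was sequenced from the livers of 8 female F1-TKm30 mice, of which 4 were untreated controls (0% MOCA) and 4 received 0.05% MOCA, that is 4,4'-methylenebis(2-chlorobenzenamine), an aromatic amine used to cure polyurethane, for 4 weeks. The question was what this compound does to gene expression in the liver. All 8 mice, controls included, are F1-TKm30 mice on the immunodeficient NOG background per the series' design, although the treatment label names C57BL, and carry a mutant herpes simplex virus thymidine kinase (clone 30) under the mouse transthyretin promoter, which is active in hepatocytes. Their age was 17 or 21 weeks, without a record of which mouse had which.

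Hepatocytes change their work along the path of the blood, from the portal vein to the central vein. Endothelial cells at the central vein secrete Wnt ligands and R-spondin, which stabilise beta-catenin in the nearest hepatocytes and switch on glutamine synthetase and other pericentral genes. Periportal hepatocytes, where that signal is low, carry out more amino acid breakdown, urea synthesis and gluconeogenesis. Cells also limit the signal by feedback: Wnt targets such as Znrf3, Rnf43, Axin2 and Nkd1 encode inhibitors of the pathway.

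Libraries held 16077424 to 17101844 reads in control mice and 15024945 to 15970453 in MOCA mice, so each MOCA library was shallower than each control library. Values are CPM with TMM scaling (reads scaled to library depth and composition), in which 1 read was worth 0.0581 to 0.0648. The tissue label was matched by its markers: the 9 hepatocyte markers examined summed to 116724 to 137141 in control and 100840 to 115505 in MOCA livers, without overlap, and the 12 sinusoidal endothelial markers to 670 to 777 and 649.98 to 671. Taken singly, 3 of the 9 hepatocyte markers (Apob, Trf and Serpina1a) had groups apart as lower, as did 4.96% of all tested genes. The other hepatocyte markers overlapped, among them Alb, the largest part of the hepatocyte sum. Kupffer cell and macrophage markers (10 genes) summed to 353 to 437 and 365 to 496, bile duct markers (8) to 55.6 to 66.7 and 49.9 to 70.4, and stellate cell markers (8) to 492 to 545 and 407 to 508; every gene of these lists was above 0 in all 8 libraries. Of 8 lymphocyte markers, 7 were not listed, and Cd8a had at most 0.194. In bulk tissue, fewer cells of a zone and less RNA per cell cannot be told apart.

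By the test used, few of the 34 genes differed beyond the spread between mice. Of the 19 pericentral genes none passed the test in either direction, and of the 15 periportal genes 1, Pigr, was lower in MOCA livers and none was higher (limma, Benjamini-Hochberg adjusted p under 0.05 over 12008 genes). Over all tested genes the same test called 0.666%, 0.4% as higher and 0.266% as lower. In the pericentral list edgeR called 0 genes and DESeq2 2, and an unadjusted p under 0.05 was reached by 5, all of them lower. In the periportal list both tools called 1 gene, and such a p was reached by 4, of which 3 were lower. Over all tested genes edgeR called 0.675% and DESeq2 3.61%, and 17.5% reached an unadjusted p under 0.05, 8.05% as lower and 9.42% as higher. The log2 fold change was negative in 15 of the 19 pericentral and 11 of the 15 periportal genes, against 48.9% of all genes; Glul, Gulo, Cyp2f2 and Hsd17b6 turned positive when columns were scaled to equal sums, and Ftcd turned negative with upper quartile scaling. The median log2 fold change was -0.18 in both zones and 0.01 over all tested genes. Without 1 mouse at a time it ran from -0.195 to -0.0575 (without MOCA replicate 4) in the pericentral list and from -0.244 to -0.0667 in the periportal list, where it was -0.0741 without control replicate 3 and -0.0667 without control replicate 2.

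**Figure D1:**
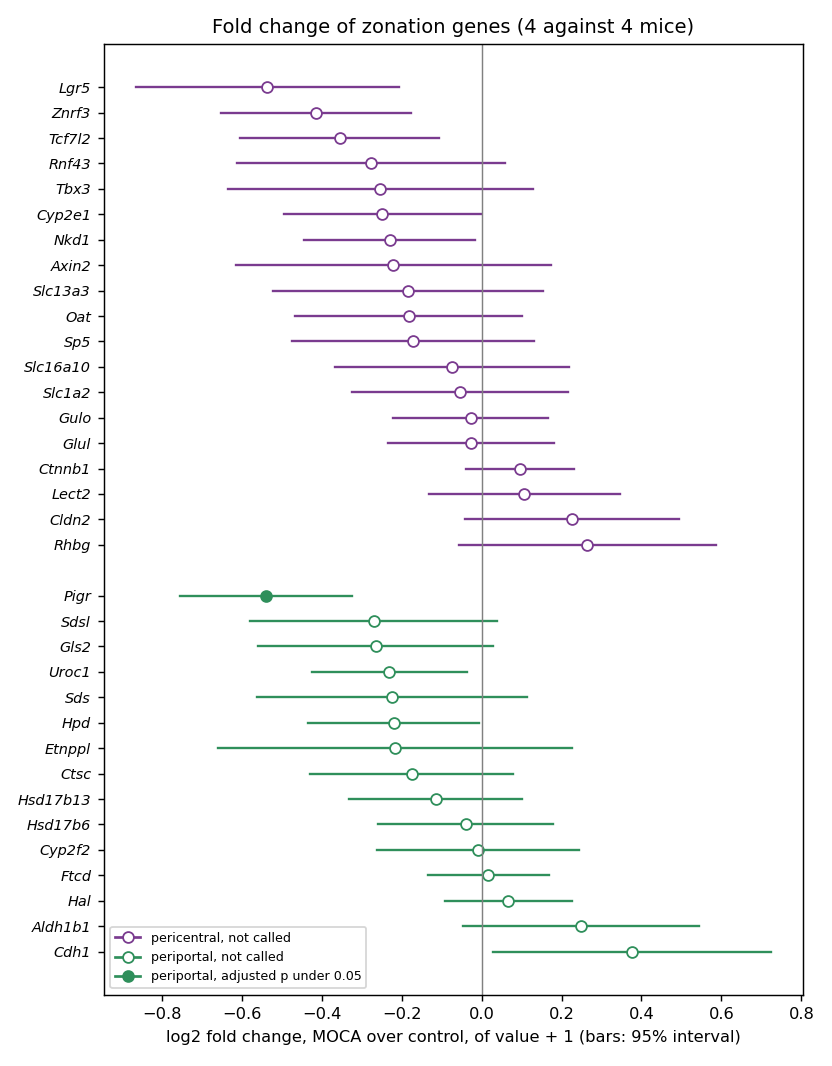
Log2 fold change (x axis, MOCA over control, of value + 1) of each of the 34 genes with its 95% interval, pericentral genes above and periportal genes below. The filled point is Pigr, the gene past an adjusted p of 0.05; Lgr5, Znrf3, Tcf7l2 and Nkd1 are among those with intervals below 0 that did not pass it.

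Lgr5 and Znrf3, of the receptor complex at the cell surface and its turnover, had the lowest log2 fold changes of the pericentral list. Lgr5, a receptor of R-spondins that marks the hepatocytes nearest the central vein (chromosome 10, 115450314 to 115587780), was 10.3, 7.08, 10.7 and 6.42 in control replicates 1 to 4 and 5.47, 6.12, 5.12 and 5.38 in MOCA replicates 1 to 4. Every MOCA mouse was below every control mouse, while the control mice themselves split into a higher and a lower pair. Its log2 fold change was -0.54 (SE 0.15, 95% interval -0.87 to -0.21, limma adjusted p = 0.12), and it rested on 79 to 178 reads per library. By DESeq2 alone its adjusted p was 0.031.

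Znrf3 encodes a membrane ubiquitin ligase that removes Frizzled receptors and is itself held in check by R-spondin bound to Lgr receptors (chromosome 11, 5276329 to 5444847). Its values were 39.0, 34.9, 41.2 and 35.6 in control livers and 33.0, 30.8, 25.6 and 23.5 in MOCA livers, again without overlap. The log2 fold change was -0.41 (SE 0.11, limma adjusted p = 0.101), and DESeq2 gave an adjusted p of 0.0268. Rnf43, its homologue with the same role, was 17.4, 13.3, 20.7 and 18.2 in control and 11.1, 15.6, 17.5 and 12.6 in MOCA livers, with overlapping groups (log2 fold change -0.28, adjusted p = 0.376). Over the alternatives tried, the adjusted p ranged from 0.031 to 0.285 for Lgr5 and from 0.0268 to 0.257 for Znrf3.

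Ctnnb1, which encodes beta-catenin, the transducer of the signal (chromosome 9, 120933400 to 120960507), was 248, 257, 241 and 262 in control livers and 279, 267, 269 and 263 in MOCA livers. Its groups did not overlap, with MOCA higher, but by a small step: the log2 fold change was 0.10 (SE 0.06, adjusted p = 0.456), with an interval of -0.04 to 0.23. Tcf7l2, the main TCF factor through which beta-catenin acts in the liver (chromosome 19, 55741797 to 55933659), went the other way. It was 33.4, 27.8, 36.0 and 27.1 in control and 21.3, 26.5, 21.6 and 26.7 in MOCA livers, so that the log2 fold change was -0.36 (SE 0.11, adjusted p = 0.159). The groups were apart by a narrow gap, between 26.7 and 27.1.

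Nkd1, a feedback inhibitor that acts on Dishevelled (chromosome 8, 88521342 to 88594887), was 5.93, 5.54, 5.62 and 5.70 in control and 4.58, 4.19, 4.79 and 5.31 in MOCA livers. Control mice varied by a CV of 2.94%, the smallest among the pericentral genes, and all MOCA values lay below them (log2 fold change -0.23, SE 0.10, adjusted p = 0.254). Nkd1 rested on few reads, 86 to 102 per library in control and 65 to 87 in MOCA livers. Counting noise alone is wider than this CV at so few reads, so the CV does not measure how alike the mice were. The gap between the groups lay between control replicate 2, with 86 reads, and MOCA replicate 4, with 87. Axin2, a scaffold of the complex that degrades beta-catenin and a common readout of Wnt activity, was 16.5, 14.6, 15.4 and 21.2 in control and 13.7, 20.05, 15.0 and 9.84 in MOCA livers. Its groups overlapped over most of their range (log2 fold change -0.22, SE 0.18, adjusted p = 0.563). The zinc finger factor Sp5 and the T-box factor Tbx3, both transcription factors under Wnt control, differed by -0.17 and -0.25 on the log2 scale (adjusted p = 0.559 and 0.486). Sp5 was the least abundant of the 34 genes, with 16 to 32 reads per library.

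The groups did not overlap in 4 of the 19 pericentral genes with MOCA lower (Lgr5, Znrf3, Tcf7l2 and Nkd1) and in 1 with MOCA higher (Ctnnb1). Over all tested genes this held for 4.96% as lower and 5.5% as higher. All 4 genes apart as lower belong to the 9 members that act in the pathway itself, of which 8 had a negative log2 fold change; the 10 enzymes, secreted proteins, transporters and junction proteins had 7 negative, and none with groups apart. This grouping by role was made with the values known, and the difference between the roles was not tested.

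**Figure D2:**
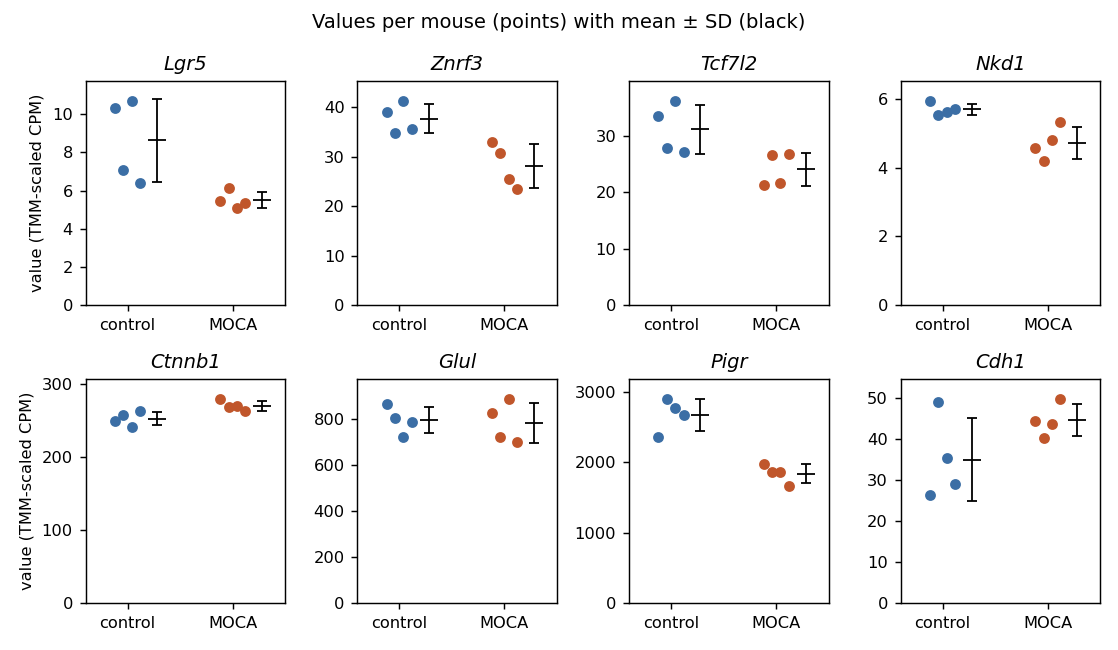
Values of 8 genes (y axis, CPM with TMM scaling, from 0) in each control mouse (blue) and each MOCA mouse (orange), with the mean and SD of 4 mice in black. Lgr5, Znrf3, Tcf7l2, Nkd1 and Pigr have all MOCA points below all control points, Ctnnb1 has them above, and Glul and Cdh1 overlap.

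Gene length was set beside these values. Lgr5, Znrf3 and Tcf7l2 span 137.5, 168.5 and 191.9 kb of the genome, and with Slc1a2 (132.5 kb) and Slc16a10 (108.7 kb) they are the 5 members over 100 kb, all of them pericentral. Over all 1482 tested genes with a span over 100 kb the median log2 fold change was -0.05, 63.4% were negative and 9.58% had groups apart as lower; among the 3874 genes of 10 to 30 kb the median was 0.03 and these shares were 43.6% and 3.92%. In the control mice, the median deviation of the long genes was 0.0408 and 0.0442 in replicates 1 and 3 and -0.0449 and -0.0289 in replicates 2 and 4. Lgr5, Znrf3 and Tcf7l2 were each higher in control replicates 1 and 3 than in 2 and 4. Slc1a2 and Slc16a10 were not: control replicate 1 was the lowest control in both. Slc1a2 was 106, 119, 143 and 131 and Slc16a10 154, 215, 250 and 229 in control replicates 1 to 4. In MOCA replicates 1 to 4 the median deviation of the long genes was -0.0345, -0.0415, -0.0713 and -0.0418. MOCA replicate 3 was below all controls and the others lay between control replicates 2 and 4. Slc1a2 and Slc16a10, the shorter of the 5, had log2 fold changes of -0.05 and -0.07. The part of gene length in the lower values of Lgr5, Znrf3 and Tcf7l2 was not tested.

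**Figure D3:**
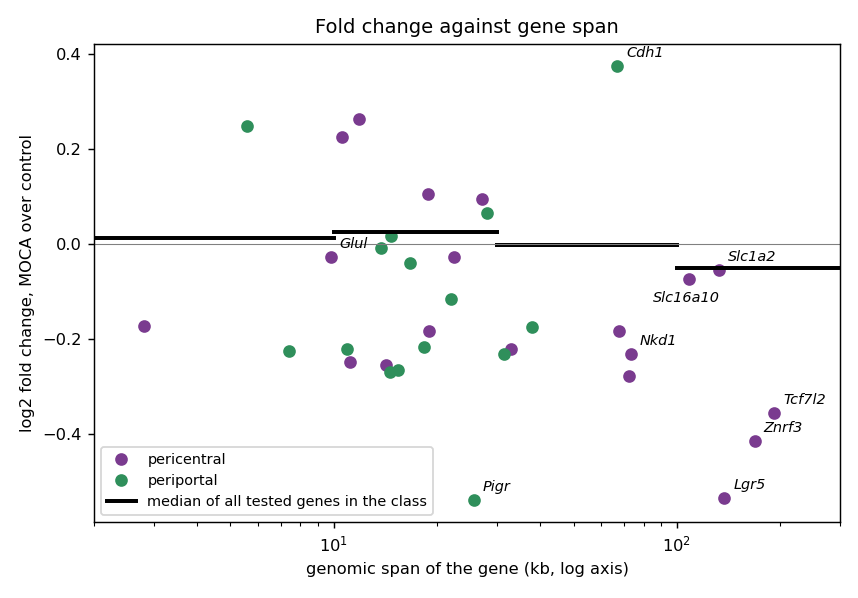
Log2 fold change (y axis, MOCA over control) of the 34 genes against the genomic span of the gene (x axis, kb, log axis), with the median of all tested genes in 4 span classes as black lines. Lgr5, Znrf3 and Tcf7l2 lie at the right and below the median of -0.05 of genes over 100 kb, while Slc1a2 and Slc16a10 lie near it.

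Of the 5 pericentral enzymes and secreted proteins limma, edgeR and DESeq2 called 0, and 1, Cyp2e1, had an unadjusted p under 0.05. Glul, the glutamine synthetase that captures ammonia in the last hepatocytes before the central vein (chromosome 1, 153899929 to 153909723), was 866, 808, 725 and 791 in control and 827, 722, 889 and 703.6 in MOCA livers. The ranges coincide, and the 95% interval of its log2 fold change, -0.23 to 0.18, includes 0 and small changes either way. The ethanol-oxidising P450 Cyp2e1 was 5623, 5869, 6169 and 6289.6 in control and 4849, 5038, 5773 and 4559 in MOCA livers. Only MOCA replicate 3 reached into the control range, and the log2 fold change was -0.25 (SE 0.11, unadjusted p = 0.0488, adjusted p = 0.283). Oat, the ornithine aminotransferase that works next to Glul, was 386 ± 71.1 and 336 ± 29.3 (SD, n = 4 each, adjusted p = 0.504). Gulo, of vitamin C synthesis, and Lect2, a secreted chemotactic protein, differed by -0.03 and 0.11 on the log2 scale (adjusted p = 0.906 and 0.652).

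Of the transporters and junction proteins none had an unadjusted p under 0.05 by limma. Rhbg, an ammonium transporter, was 9.88, 11.1, 8.27 and 10.5 in control and 16.3, 9.73, 10.6 and 12.6 in MOCA livers, and its log2 fold change of 0.26 (adjusted p = 0.379) was the highest of the 19 genes. MOCA replicate 1 alone lay well above the controls. Cldn2, a tight junction claudin, was 83.1, 65.4, 70.2 and 75.2 in control and 66.9, 96.0, 84.0 and 100.1 in MOCA livers (log2 fold change 0.23, adjusted p = 0.362). The glutamate transporter Slc1a2, the dicarboxylate transporter Slc13a3 and the aromatic amino acid transporter Slc16a10 differed by -0.05, -0.18 and -0.07 on the log2 scale (adjusted p = 0.861, 0.577 and 0.824).

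Promoter sequence was looked at for the letters that TCF factors bind, since several of these genes are known Wnt targets. The 250 bases before the first listed RefSeq start (build GRCm38.p6, the assembly of mm10) were given for 25 of the 34 genes. CTTTGAT or CTTTGAA, on either strand, occurred in 4 of 14 pericentral promoters (Cyp2e1, Slc1a2, Lect2 and Sp5) and in 1 of 11 periportal promoters (Hal). The 14 include windows internal to the gene. The listed starts of Slc1a2, Nkd1 and Axin2 lie 48199, 6291 and 2521 bases inside the gene span used here. Nkd1 and Axin2, without a match, were therefore not read at the start of that span. They occurred in 7.67% of all 27025 promoters of that length and in 5.6% of those of tested genes. The letters overlap in their first 6 bases, so a position can hold one or the other. The 5 promoters with a match are shown first, with the match in capitals, and then that of Pigr, the gene that passed the test, in which these letters did not occur.
Sp5 promoter, chr2:70474673-70474922, plus strand: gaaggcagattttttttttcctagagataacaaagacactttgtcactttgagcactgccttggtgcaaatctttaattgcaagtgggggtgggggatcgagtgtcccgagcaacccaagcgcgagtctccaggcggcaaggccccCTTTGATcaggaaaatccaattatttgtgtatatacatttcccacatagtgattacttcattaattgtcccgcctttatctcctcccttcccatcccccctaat
Lect2 promoter, chr13:56548539-56548788, minus strand: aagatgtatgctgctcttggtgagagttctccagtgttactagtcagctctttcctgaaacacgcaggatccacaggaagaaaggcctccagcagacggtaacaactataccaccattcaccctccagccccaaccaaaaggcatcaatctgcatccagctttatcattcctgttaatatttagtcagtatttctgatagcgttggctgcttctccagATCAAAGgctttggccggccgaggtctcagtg
Slc1a2 promoter, chr2:102706188-102706437, plus strand: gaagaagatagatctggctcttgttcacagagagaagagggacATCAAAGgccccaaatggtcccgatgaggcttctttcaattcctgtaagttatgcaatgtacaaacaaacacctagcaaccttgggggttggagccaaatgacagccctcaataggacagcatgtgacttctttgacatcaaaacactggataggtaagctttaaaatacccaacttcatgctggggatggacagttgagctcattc
Cyp2e1 promoter, chr7:140763569-140763818, plus strand: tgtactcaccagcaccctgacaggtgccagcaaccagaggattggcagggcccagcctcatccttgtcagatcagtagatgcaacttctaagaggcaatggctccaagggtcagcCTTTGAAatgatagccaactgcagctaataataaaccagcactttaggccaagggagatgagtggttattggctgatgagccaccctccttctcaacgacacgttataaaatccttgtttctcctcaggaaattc
Hal promoter, chr10:93488518-93488767, plus strand: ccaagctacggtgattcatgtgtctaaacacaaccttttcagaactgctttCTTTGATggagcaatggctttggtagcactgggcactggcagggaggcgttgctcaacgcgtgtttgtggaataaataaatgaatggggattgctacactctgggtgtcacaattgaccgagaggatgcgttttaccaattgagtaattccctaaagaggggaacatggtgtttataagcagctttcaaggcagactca
Pigr promoter, chr1:130826434-130826683, plus strand: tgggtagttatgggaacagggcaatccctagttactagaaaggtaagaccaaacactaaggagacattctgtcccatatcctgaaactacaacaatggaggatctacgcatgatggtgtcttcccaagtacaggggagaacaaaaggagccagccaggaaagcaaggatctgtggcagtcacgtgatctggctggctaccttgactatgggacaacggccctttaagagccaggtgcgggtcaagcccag
The match in Sp5 begins 104 bases before the start, on the gene's own strand; that in Lect2 begins 32 bases before it and that in Slc1a2 207 bases before it, both on the other strand. The listed start of Slc1a2 lies 48199 bases inside the gene span used here, so its window is internal to the gene, and that of Lect2 lies 21 bases inside; for the other 4 genes shown the window ends where the span begins. The match in Cyp2e1 begins 135 bases before the start and that in Hal 199, both on the gene's own strand. None of these 5 genes was called, and of them Cyp2e1 had the lowest unadjusted p, 0.0488. A match is a description of the letters and not a site of binding.

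The rest of the Wnt pathway held no call by limma or edgeR. Of 14 ligands, R-spondins and secretion factors, 10 were tested, 3 of them with an unadjusted limma p under 0.05, all lower. Over all tested genes such a p was reached by 17.5%, by 8.05% as lower. Wnt2, which is made by endothelial cells of the lobule, was 3.66, 4.77, 4.32 and 3.90 in control and 3.63, 2.77, 3.63 and 2.63 in MOCA livers (log2 fold change -0.31, adjusted p = 0.231). Wnt9a was 1.74, 1.80, 2.47 and 1.92 in control and 1.40, 0.838, 0.842 and 0.855 in MOCA livers. This difference of 50.4% did not pass by limma (adjusted p = 0.0726) and passed by DESeq2 (0.0444). Wnt9a reached the filter value of 1 in all 4 control mice but only in replicate 1 of the MOCA mice, so the controls alone brought it into the test. It rested on 28 to 40 reads per library in control and 13 to 22 in MOCA livers. Porcn, which attaches the lipid that Wnt proteins need for secretion, had a log2 fold change of -0.33 (adjusted p = 0.207). Wnt5b was 1.82 ± 0.424 and 2.56 ± 0.763 (adjusted p = 0.358). The central vein ligand Wnt9b and the R-spondin Rspo3 were 1.17 ± 0.389 and 1.43 ± 0.437, and 6.16 ± 0.519 and 6.19 ± 1.84, in control and MOCA livers (SD, n = 4 each; adjusted p = 0.648 and 0.952). The summed endothelial markers were 670 to 777 in control and 649.98 to 671 in MOCA livers. Of these 12 markers 9 had a negative log2 fold change, against 48.9% of all tested genes. The part of the endothelial markers in the values of Wnt2 and Wnt9a was not tested.

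Among 11 tested receptors and co-receptors 10 had a negative log2 fold change and 2 an unadjusted limma p under 0.05. Over all tested genes these shares were 48.9% and 17.5%. In this list DESeq2 called 1 gene. That gene was Fzd1, a Frizzled receptor, with 37.0, 33.2, 35.5 and 31.4 in control and 25.3, 27.98, 22.4 and 25.4 in MOCA livers. Its groups were apart, and its log2 fold change was -0.43 (SE 0.09, adjusted p = 0.0517 by limma, 0.0503 by edgeR and 0.00224 by DESeq2). By limma it passed with a stricter filter, with 2 other scalings and with robust eBayes. It did not pass by limma when any 1 mouse was left out. Nor did it pass with the replicate block, other pseudocounts, no filter, equal sums, array weights or eBayes without trend. Fzd3 had -0.37 (adjusted p = 0.269), Fzd8 0.30 (0.293) and the co-receptor Lrp5 -0.16 (0.386). Fzd3 rested on 18 to 25 reads per library in control and 7 to 18 in MOCA livers. Its values in MOCA replicates 1 and 4, 0.509 and 0.428, were below the filter value of 1, which all control mice reached. DESeq2 gave no adjusted p for Fzd3.

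Of the 20 tested genes of the destruction complex and TCF factors 5 had an unadjusted limma p under 0.05, 4 of them lower, and DESeq2 called 0. Over all tested genes such a p was reached by 17.5%, by 8.05% as lower. Apc, the scaffold that holds beta-catenin for degradation, was 119, 121, 141 and 113 in control and 112, 113, 108 and 96.7 in MOCA livers, and the kinase Csnk1a1, which starts its phosphorylation, was 73.3, 73.3, 71.5 and 71.8 in control and 66.8, 63.0, 61.4 and 65.4 in MOCA livers. Both had groups apart as lower, as did 4.96% of all tested genes (log2 fold changes -0.20 and -0.17, adjusted p = 0.256 and 0.185). The co-repressor Tle1 had -0.28 (0.222) and the co-activator Bcl9l -0.22 (0.26). Of the secreted or surface inhibitors 3 of 14 could be tested, with 1 unadjusted p under 0.05 and 0 DESeq2 calls: Dkk3 was 3.46 ± 0.322 and 2.39 ± 0.501 (adjusted p = 0.165), Notum 30.5 ± 4.26 and 27.5 ± 1.41 (0.509) and Kremen1 27.3 ± 1.56 and 25.4 ± 0.811 (0.516).

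As a list, other genes of the pericentral zone did not share the direction of the 19. Of 32 tested, 3 rose and none fell by limma, and the median log2 fold change was 0.11, with 25 positive values. edgeR called 3 of them and DESeq2 6. By limma 11 had an unadjusted p under 0.05, 8 higher and 3 lower, against 9.42% and 8.05% of all tested genes. The 3 lower were Cyp7a1 (log2 fold change -1.61, adjusted p = 0.163), Por (-0.41, 0.174) and Cyp27a1 (-0.22, 0.17). Those called as higher by limma were Cyp2c29, a P450 induced through CAR, by 1.303, the glutathione S-transferase Gstm3 by 1.36 and the retinal dehydrogenase Aldh1a1 by 0.66 on the log2 scale (adjusted p = 0.00534, 0.027 and 0.0202). Aldh1a1 was 674, 816, 688 and 851 in control and 1283, 1116, 1073 and 1324 in MOCA livers, without overlap. The neutral amino acid transporter Slc1a4 was 4.76, 5.35, 4.26 and 4.14 in control and 7.13, 6.38, 5.96 and 8.12 in MOCA livers, with groups apart and an adjusted p of 0.0829. P450 and Gstm genes have near-identical relatives among which reads may have been divided, so their values are uncertain.

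Pigr, the receptor that carries IgA across epithelial cells into bile (chromosome 1, 130826684 to 130852249), was the single member that fell. It was 2364, 2902, 2777 and 2678 in control livers and 1982, 1859, 1868 and 1659 in MOCA livers, with no overlap. The mean fell by 31.3%, and the log2 fold change was -0.54 (SE 0.10, 95% interval -0.76 to -0.32, limma adjusted p = 0.0344). It was called by edgeR (0.028) and DESeq2 (4.59e-07), and not called without a filter on low values (0.0619) or without any 1 of control replicates 2, 3 and 4 or MOCA replicates 2, 3 and 4 (0.0648 to 0.1195). The summed hepatocyte markers, with Alb the largest part, were lower in MOCA livers as well, by less. Their means were 123484 and 110745, and their part in the value of Pigr was not tested.

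Among the other surface and lysosomal proteins of the periportal zone, Cdh1, the epithelial cadherin, was 26.3, 49.1, 35.2 and 29.0 in control and 44.3, 40.2, 43.7 and 49.7 in MOCA livers. Its log2 fold change of 0.38 (SE 0.16, adjusted p = 0.254) was the highest of the 34 genes, and control replicate 2 lay among the MOCA mice. Bile duct cells also express Cdh1, and their 8 markers summed to overlapping ranges. The lysosomal protease Ctsc was 122 ± 21.2 and 107 ± 11.2 (adjusted p = 0.47).

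The periportal enzymes of amino acid breakdown had a negative log2 fold change in 6 of 8 cases, and 2 had an unadjusted limma p under 0.05. Over all tested genes these shares were 48.9% and 17.5%. Of the 8 enzymes limma, edgeR and DESeq2 called 0. In the histidine pathway Hal, which takes the first step, was 181 ± 9.84 and 189.9 ± 13.2, Uroc1, which takes the second, was 624 ± 66.2 and 530.1 ± 29.1, and Ftcd, which takes a later one, was 274 ± 18.4 and 277 ± 8.97 in control and MOCA livers (SD, n = 4 each). Of these 3, only Uroc1 had an unadjusted p under 0.05 (0.024, adjusted 0.218), with 537, 695, 645 and 619.9 in control and 570.2, 531, 503.1 and 516 in MOCA livers. Hpd, of tyrosine breakdown, was 1815, 2003, 2002 and 2235 in control and 1844, 1755, 1528 and 1786 in MOCA livers (log2 fold change -0.22, adjusted p = 0.273). In both genes control replicate 1 was the control mouse that overlapped with MOCA mice.

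Gls2, the liver glutaminase that releases ammonia for urea synthesis, was 302, 475, 448 and 445 in control and 338, 361, 299 and 374 in MOCA livers (log2 fold change -0.26, adjusted p = 0.334). Here too control replicate 1 was the single control mouse in the MOCA range. The serine dehydratases Sds and Sdsl, which are paralogs, had -0.22 and -0.27 (adjusted p = 0.487 and 0.349), and the phospholyase Etnppl -0.22 (0.62). The oxidoreductases of the list overlapped in all 4 cases: Cyp2f2, a P450 that is the usual periportal marker, was 1192, 1687, 1383 and 1394 in control and 1483, 1277, 1549.8 and 1291 in MOCA livers (log2 fold change -0.01, interval -0.26 to 0.24). Hsd17b13, a lipid droplet enzyme, had -0.11, the steroid and retinol oxidising Hsd17b6 -0.04 and the mitochondrial aldehyde dehydrogenase Aldh1b1 0.25, with adjusted p of 0.589, 0.877 and 0.363.

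Of 29 other periportal genes tested, none was called by limma or edgeR and DESeq2 called 2, against 3.61% of all tested genes. The median log2 fold change was -0.06. An unadjusted limma p under 0.05 was reached by 4, against 17.5% of all tested genes. The 4 were Vtn, the plasma adhesion protein vitronectin (-0.35, adjusted p = 0.122), the antitrypsin paralog Serpina1c (-0.46, 0.117), the apolipoprotein Apoa4 (-0.56, 0.178) and Kynu, of tryptophan breakdown (0.22, 0.14). Vtn and Serpina1c are the 2 that DESeq2 called.

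Periportal genes varied together between control mice. Control replicate 1 had the lowest control value in 12 of the 15 genes, and control replicate 2 the highest in 13. As the mean log2 deviation from the control mean, the 15 genes stood at -0.225, 0.2, 0.035 and -0.009 in control replicates 1 to 4 and at -0.11, -0.074, -0.131 and -0.11 in MOCA replicates 1 to 4. The 4 MOCA mice thus lay close together and inside the range of the control mice. For the 29 other periportal genes control replicates 1 and 2 stood at -0.104 and 0.153, again the lowest and the highest of the controls. Control replicate 2 had the largest column sum, and with columns scaled to equal sums the periportal control range was -0.179 to 0.126.

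**Figure D4:**
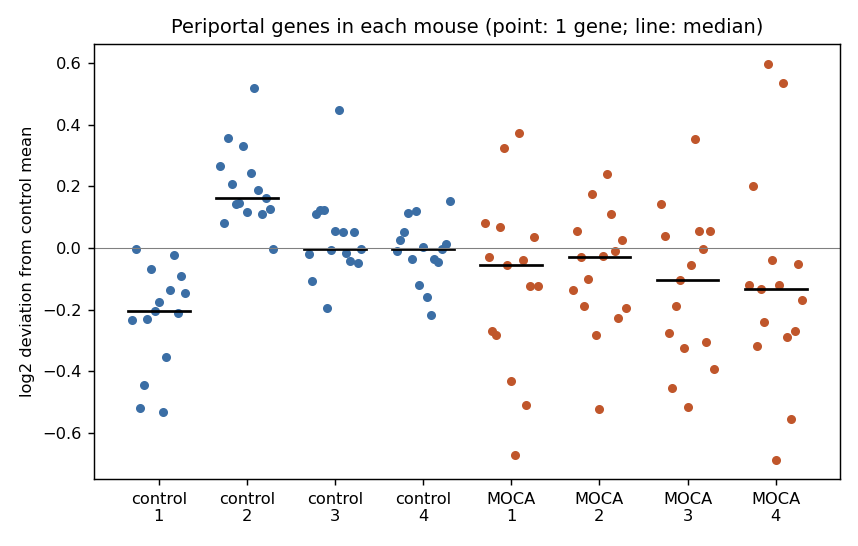
Deviation of each periportal gene from its control mean (y axis, log2) in each of the 8 mice (x axis), with the median as a line. Control replicate 1 has all 15 genes below the control mean and control replicate 2 has 14 of 15 above it.

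The 32 other pericentral genes did likewise, with control replicate 1 at -0.102 (24 genes below the control mean) and control replicate 2 at 0.109 (25 above). In the 19 pericentral genes the control mice lay closer together. The mean deviation of these genes was -0.001, -0.051, -0.006 and 0.059 in control and -0.156, -0.071, -0.091 and -0.222 in MOCA replicates 1 to 4, so the MOCA mice were all lower, by 0.135 on average. With columns scaled to equal sums the groups overlapped (-0.122 to 0.049 in control and -0.152 to -0.003 in MOCA livers), as they did without the 5 members over 100 kb (-0.089 to 0.108 and -0.165 to -0.014), and they stayed apart with median of ratios scaling (-0.053 to 0.06 and -0.225 to -0.078) and upper quartile scaling (-0.063 to 0.066 and -0.223 to -0.084). These 4 settings were chosen after seeing the data. The difference between the zones was 0.224, -0.251, -0.041 and 0.068 in control and -0.046, 0.003, 0.04 and -0.112 in MOCA livers, so the balance of the zones in each MOCA mouse lay within the range of the control mice.

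**Figure D5:**
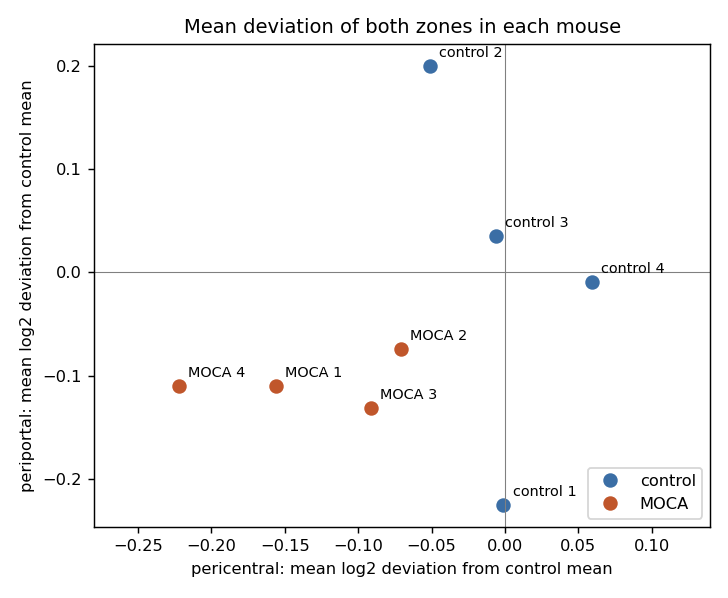
Mean log2 deviation from the control mean of the 19 pericentral genes (x axis) and the 15 periportal genes (y axis), 1 point per mouse. The MOCA mice lie to the left of the controls on the pericentral axis and between control replicates 1 and 2 on the periportal axis.

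Levels differed far more between genes than between groups. Per kb of exon, control levels in the pericentral list ran from 3256 for Cyp2e1 and 285.7 for Glul down to 1.83 for Lgr5, 1.25 for Nkd1 and 0.715 for Sp5, and in the periportal list from 1434 for Hpd and 758 for Cyp2f2 down to 4.82 for Sdsl. Replicate spread was wider in some genes than in others: the control CV ran from 2.94% (Nkd1) to 25.4% (Lgr5) in the pericentral list, with a median of 13.99%, and from 5.43% (Hal) to 29.4% (Etnppl) in the periportal list, with a median of 11.2%, against 10.9% over all tested genes. The CV of Nkd1 is below the counting noise of its few reads and is not a measure of spread between mice. Genes listed in the table overlap Glul, Ctnnb1, Sds, Gls2 and Hpd on the opposite strand and Oat and Rnf43 on the same strand. Whether strand was used in counting was not given in the sources used here, so reads of these pairs cannot be told apart.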

How the data were processed

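Liver RNA of 4 control and 4 MOCA mice was sequenced from 200 ng of total RNA, depleted of ribosomal RNA, in directional libraries, per the labels' protocols. Trimmomatic 0.38, Bowtie2, RSEM and edgeR are named with build mm10 in the submitters' processing notes, without roles. The authors deposited 1 table of scaled signal, named normalised counts, for 15210 genes and 8 columns, each matched to a mouse by its description. Divided by the smallest step of its column, 100% of values came out whole within 0.001, which recovers the reads, and these steps equal those of CPM scaled by TMM. Columns not used: 0.

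Genes that reached a value of 1 in 4 or more libraries (12008; 3202 left out) were tested with limma 3.58.1 in R 4.3.3 (lmFit, eBayes with trend) on log2(value + 1), MOCA against control, without covariates; fold changes on this scale understate those of low genes. An adjusted p under 0.05 over all tested genes made a call. Counts of listed genes and medians describe lists, with no list test. As alternatives the recovered reads were tested with the quasi-likelihood fit of edgeR 4.0.16, which called 81 genes, and with DESeq2 1.42.0. Intervals are 95% from the limma fit. No replicate pair agreed within sampling noise. The limma script was tested on simulated data. Gene spans come from RefSeq records (GRCm38.p6, matched by symbol), exon lengths from GENCODE, promoters from RefSeq. The members, lists and roles were chosen with earlier results of these data known. Named are all members, called genes of other lists, and otherwise up to 4 list genes with the smallest p. Wnt9b, Rspo3, Slc1a4, Cyp7a1, Por and Cyp27a1 were named after their values were seen.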

Additional observations from a re-analysis of the deposited data

Results flagged for a closer look

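Of 68 groups of 4 mice (34 genes in 2 groups), 2 held a mouse far from the other 3 by Dixon's test; chance alone flags about 1 in 20. Sds in MOCA livers was 65.1 in MOCA replicate 2 and 53.1 to 54.9 in the others. Sdsl in control livers was 7.86 in control replicate 2 and 6.96 to 7.09 in the others.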

How the results depend on the processing

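Results were recomputed under 21 other settings; Sp5 had 20, since the filter at a value of 5 removed it, and the zone means had 4. Calls over all genes (80, with 48 higher and 32 lower) became 169 (131 higher) with columns scaled to equal sums, 425 (222 higher and 203 lower) by DESeq2 and 30 (20 higher and 10 lower) with the replicate block; 51 were lower with upper quartile scaling and 53 with robust eBayes. The share of higher calls was 60% as deposited, 77.5% with equal sums and 46.9% with upper quartile scaling. Leaving out 1 mouse at a time gave 29 to 77 calls, 21 to 42 higher and 8 to 35 lower. Control replicates 1 and 2 left 45 and 47, control replicates 3 and 4 left 29 and 40, and MOCA replicates 2 and 4 left 42 and 39.

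DESeq2 called 2 pericentral members, 1 Wnt ligand, 1 receptor, 6 other pericentral and 2 other periportal genes, against 3.61% of all tested genes. The receptor Fzd1 was called (1 gene) with a filter at a value of 5, median of ratios scaling, upper quartile scaling and robust eBayes. It was not called when any 1 mouse was left out. No periportal member (0) was called without a filter or with the replicate block (Pigr adjusted p = 0.0619 and 0.105), and 0 to 1 when 1 mouse was left out. Other pericentral calls ranged from 1 to 3 without 1 mouse, and were 1 without control replicate 1, control replicate 3 or MOCA replicate 4. The pericentral median was -0.132 with equal sums and -0.195 to -0.0575 without 1 mouse. Without 1 mouse it was -0.112 for control replicate 4 and -0.13 for MOCA replicate 1; the periportal median ran from -0.244 to -0.0667. The zone means stood at -0.084 (pericentral) with equal sums and -0.081 without the members over 100 kb.

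Signs turned in 21 of 713 comparisons of a member with its value as reported, all in genes with a log2 fold change within 0.1 of 0. With equal sums these were Glul (0.0271), Gulo (0.026), Cyp2f2 (0.0454) and Hsd17b6 (0.0134); with upper quartile scaling Ftcd (-0.00124); and with array weights Hsd17b6 (0.00799). Without 1 mouse at a time the log2 fold change ranged through 0 for Glul (-0.088 to 0.0242), Gulo (-0.0869 to 0.0189), Cyp2f2 (-0.0865 to 0.0806), Hsd17b6 (-0.0901 to 0.0432), Slc1a2 (-0.158 to 0.0296), Slc16a10 (-0.2195 to 0.0134) and Ftcd (-0.0133 to 0.0598). The cause was not tested.

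Replicate numbers gave no sign of pairing the mice. Deviations of same-numbered mice correlated at -0.0735, -0.0014, 0.036 and -0.0441, and those of differently numbered mice at -0.161 to 0.212. With 4 mice per group this cannot exclude a shared factor, and the age of each mouse is not recorded. The replicate block is therefore a check only, and the loss of calls under it is not read as a weaker effect. Reads per library were fewest for Sp5 (16 to 32); what depth can detect was not tested.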
